A study of Mus musculus with 12 samples.

Results

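The C/EBP family is a small group of transcription factors that share a basic leucine zipper, the segment with which they pair and grip DNA. Its mouse genes are Cebpa, Cebpb, Cebpd, Cebpe, Cebpg and Ddit3, the last of which encodes CHOP. They were taken by symbol from the deposited count table: 6 of 24411 symbols, all 6 of them among the 11578 that passed the filter on low counts.

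C/EBP proteins bind as dimers, with each other or with other leucine zipper factors, and so the balance among members bears on which dimers can form. In the bone marrow C/EBPα commits progenitors to the granulocyte and monocyte lines, C/EBPβ sustains granulocyte production in infection and under cytokines, and C/EBPε is needed for the late steps in which secondary granules are filled. C/EBPδ is best known from the acute inflammatory response, C/EBPγ lacks a strong activation domain and acts mostly as a partner, and CHOP is a stress-induced member that turns its partners away from many of their usual sites.

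RNA was sequenced from HoxB8 cells, mouse bone marrow progenitors held in an immature state by a Hoxb8 that needs estrogen. The groups, each of 3 libraries, were Asxl1-MT2/T618I (vectors pMIG-Asxl1-MT2 and pMICH-CSF3R-T618I), Asxl1-MT2/Empty (pMIG-Asxl1-MT2 and the empty pMICH), Empty/T618I (the empty pMIG and pMICH-CSF3R-T618I) and Empty/Empty (both vectors empty). Asxl1-MT2 is a truncated form of the chromatin regulator ASXL1, and T618I is a mutation of CSF3R, the receptor for granulocyte colony-stimulating factor. In all 4 groups estrogen had been withdrawn for 24 h. Both mutants were overexpressed from vectors in an immortalised line whose own Asxl1 and Csf3r genes were not described as altered, so these are overexpression models and not knock-ins. Library totals lay between 9341984 and 10252291 counts.

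The labels were checked first. Asxl1 was at 919 to 1086 CPM (CPM being counts scaled to library size with TMM factors) in Asxl1-MT2/T618I, 1678 to 1833 CPM in Asxl1-MT2/Empty, 134 to 167 CPM in Empty/T618I and 116 to 125 CPM in Empty/Empty. Socs3, which CSF3R signalling switches on and whose product then damps it, had 196 to 264 CPM in Asxl1-MT2/T618I, 10.4 to 11.1 CPM in Asxl1-MT2/Empty, 151 to 176 CPM in Empty/T618I and 11.9 to 13.8 CPM in Empty/Empty. One library titled Empty/Empty has a genotype label that names T618I, but all 3 Empty/Empty libraries had Socs3 far below the Empty/T618I libraries, and each was also left out in turn. The 7 measured genes of the neutrophil progenitor list, among them Mpo, Elane and Kit, summed to 14225 to 18844 CPM in Asxl1-MT2/T618I, 38278 to 42814 CPM in Asxl1-MT2/Empty, 16104 to 19231 CPM in Empty/T618I and 33972 to 43061 CPM in Empty/Empty. The mast cell and basophil list of 13 genes summed to 3654 to 4063 CPM in Asxl1-MT2/T618I, 677 to 723 CPM in Asxl1-MT2/Empty, 3504 to 6707 CPM in Empty/T618I and 1093 to 1279 CPM in Empty/Empty, with Mcpt4 and Tpsab1 at 0 counts in Asxl1-MT2/Empty and Fcer1a at 0 counts in Empty/Empty. Because these are bulk samples, fewer cells of a type and less RNA per cell cannot be told apart in any value below. The labels do not state whether the 3 libraries of each group are independent cultures. The p-values thus reflect only how much these libraries varied, and that variation could be technical.

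The promoters of Cebpa and Cebpb are shown because the ratio between these genes was among those that differed most between the groups. RefSeq (GRCm38.p6) promoters of 300 bases, from 250 before the annotated start to 50 after it, were at hand for 4 of the 6 members (Cebpa, Cebpb, Cebpg and Ddit3), and Cebpd and Cebpe are named only. The Cebpa window is chr7:35119043-35119342 on the plus strand and the Cebpb window is chr2:167688665-167688964 on the plus strand. Capitals mark matches to TATAAA (the TATA box) or TGACG (the half-site bound by CREB and ATF factors, in either orientation). Both are written 5′ to 3′:
Cebpa: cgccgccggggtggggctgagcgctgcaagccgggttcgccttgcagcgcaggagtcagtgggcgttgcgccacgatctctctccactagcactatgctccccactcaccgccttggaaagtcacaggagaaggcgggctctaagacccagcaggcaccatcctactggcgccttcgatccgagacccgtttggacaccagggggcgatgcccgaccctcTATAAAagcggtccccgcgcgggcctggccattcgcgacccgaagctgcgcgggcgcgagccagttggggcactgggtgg
Cebpb: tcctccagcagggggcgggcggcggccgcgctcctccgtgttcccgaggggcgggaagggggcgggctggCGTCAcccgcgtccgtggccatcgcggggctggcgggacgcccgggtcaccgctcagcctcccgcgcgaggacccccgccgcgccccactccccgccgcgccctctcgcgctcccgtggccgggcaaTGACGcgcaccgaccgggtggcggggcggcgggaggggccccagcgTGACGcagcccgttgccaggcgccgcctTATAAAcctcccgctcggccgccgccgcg

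Positions count from +1 at the annotated start, and the base before it is -1. The Cebpa window held a TATAAA whose first base lies at -30. The Cebpb window held TGACG 3 times, at -53 and -7 on the plus strand and at -180 on the minus strand, and a TATAAA at +22. No match to TTNNGNAA (a C/EBP site), TTCNNNGAA (a STAT site), TGANTCA (an AP-1 site) or TGATGNAA (an ATF4 and C/EBP composite) was found in either window on either strand, and no 2 matches overlapped. The Ddit3 window held 1 TGANTCA, at -242, and the Cebpg window held none of the 6 motifs. Among all 32544 promoters of this length, 13.6% held TATAAA, 20.9% TGACG, 40.7% TTNNGNAA, 8.33% TTCNNNGAA, 7.79% TGANTCA and 3.91% TGATGNAA. A match only says that these letters are present, and a lack of one only that they are not in this window.

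In outline, the members split. Cebpb rose with T618I and rose further when Asxl1-MT2 was added. Cebpe fell with T618I alone but not in cells that carried both constructs, and Cebpd passed with neither construct alone and rose 1.62-fold when Asxl1-MT2 joined T618I. Cebpa and Cebpg were modestly lower in Asxl1-MT2/T618I than in each of the other groups, and Ddit3 did not pass the test anywhere. Of the 6 members, 1 rose and 1 fell with T618I alone, where 33.5% of all tested genes changed (17.6% rose and 15.9% fell). Set against Empty/T618I, Asxl1-MT2/T618I had 3 members higher and 2 lower, where 43.9% of all genes changed (25.4% higher and 18.5% lower). Set against Asxl1-MT2/Empty it had 2 higher and 2 lower, where 49.8% of all genes changed (26.9% higher and 22.8% lower). Set against Empty/Empty it also had 2 higher and 2 lower, where 50.6% of all genes changed (27.5% higher and 23.1% lower). The interaction passed upward for 2 members and downward for none, where 14.1% of all genes passed upward and 5.51% downward. With only 6 genes, nothing about the family as a whole is read from these counts.

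**Figure D1:**
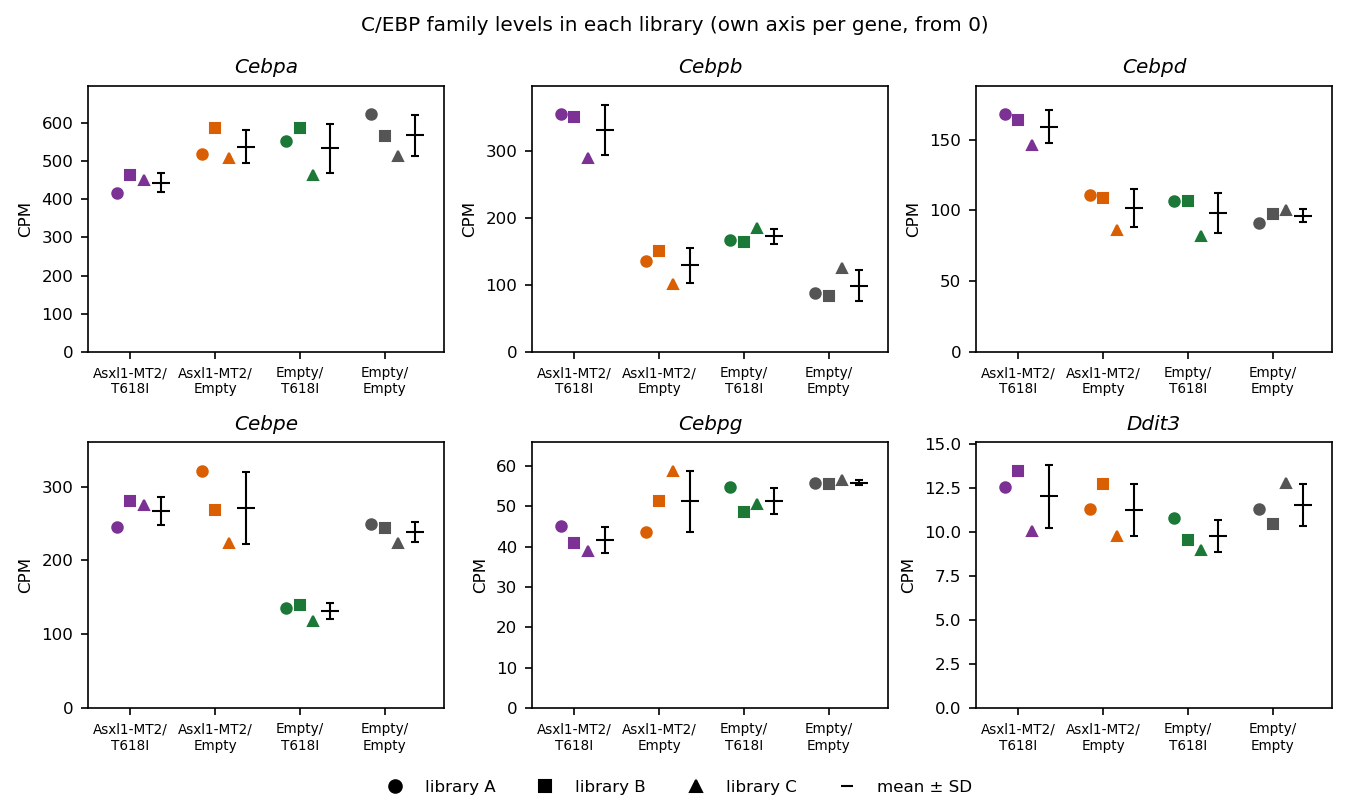
Level of each C/EBP family gene in the 12 libraries, in CPM on an axis of its own from 0, with groups from left to right as Asxl1-MT2/T618I, Asxl1-MT2/Empty, Empty/T618I and Empty/Empty. Symbols mark libraries A, B and C, and bars the mean ± SD of 3. All 3 Cebpb values of Asxl1-MT2/T618I (289 to 355 CPM) lie above the 9 other libraries, and all 3 Cebpe values of Empty/T618I (118 to 139.7 CPM) lie below them.

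C/EBPα, the factor without which mice make no granulocytes, is encoded by the single-exon gene Cebpa (ENSMUSG00000034957, GRCm38 chr7:35119293-35121928, plus strand). Its level in libraries A, B and C was 416, 464 and 451 CPM in Asxl1-MT2/T618I, 519, 588 and 509.7 CPM in Asxl1-MT2/Empty, 553, 588 and 463 CPM in Empty/T618I and 623, 566 and 515 CPM in Empty/Empty. The Asxl1-MT2/T618I libraries were the low ones and overlapped with Empty/T618I alone, through library C of that group, while the other 3 groups overlapped with each other. Group means were 443 ± 24.9 CPM in Asxl1-MT2/T618I, 539 ± 42.5 CPM in Asxl1-MT2/Empty, 535 ± 64.5 CPM in Empty/T618I and 568 ± 54.1 CPM in Empty/Empty (SD, n = 3 each). Set against Empty/Empty, Cebpa was lower with both constructs by the edgeR quasi-likelihood test (log2 fold change -0.36 ± 0.0977 SE, adjusted p = 0.00574). Against Empty/T618I the log2 fold change was -0.27 ± 0.0977 (edgeR adjusted p = 0.0335) and against Asxl1-MT2/Empty -0.28 ± 0.0977 (edgeR adjusted p = 0.0246). These last calls rest on single libraries. The call against Empty/T618I was lost without library A of Asxl1-MT2/T618I (edgeR adjusted p = 0.123) and without library A or B of Empty/T618I (0.0713 and 0.136), and that against Asxl1-MT2/Empty without library A or C of Asxl1-MT2/T618I (0.0947 and 0.0510) or library B of Asxl1-MT2/Empty (0.117). With a single construct Cebpa showed no change that passed: the log2 fold change was -0.09 ± 0.0974 in Empty/T618I over Empty/Empty (edgeR adjusted p = 0.528) and -0.08 ± 0.0974 in Asxl1-MT2/Empty over Empty/Empty (edgeR adjusted p = 0.904).

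C/EBPβ, the member that takes over much of granulocyte production during infection in mice, is encoded by the single-exon gene Cebpb (ENSMUSG00000056501, GRCm38 chr2:167688915-167690418, plus strand). It was measured at 355, 351 and 289 CPM in Asxl1-MT2/T618I, 135, 151 and 101 CPM in Asxl1-MT2/Empty, 168, 165 and 185 CPM in Empty/T618I and 87.3, 83.2 and 126 CPM in Empty/Empty. The Asxl1-MT2/T618I libraries stood above all others and the Empty/T618I libraries stood above both groups without T618I, while Asxl1-MT2/Empty and Empty/Empty overlapped. The means were 332 ± 36.9 CPM in Asxl1-MT2/T618I, 129 ± 25.6 CPM in Asxl1-MT2/Empty, 172 ± 10.96 CPM in Empty/T618I and 98.8 ± 23.5 CPM in Empty/Empty (SD, n = 3 each). T618I alone raised Cebpb 1.75-fold over Empty/Empty (log2 fold change 0.80 ± 0.151, edgeR quasi-likelihood adjusted p = 0.000442). In cells with Asxl1-MT2, T618I raised it 2.57-fold (1.36 ± 0.150, edgeR adjusted p = 8.6e-07). Adding Asxl1-MT2 to T618I raised it 1.92-fold (0.94 ± 0.148, edgeR adjusted p = 6.93e-05), and both constructs together gave 3.36-fold the Empty/Empty level (1.75 ± 0.152, edgeR adjusted p = 4.59e-08). All of these calls held with every single library left out in turn.

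Asxl1-MT2 alone left Cebpb short of a call. The log2 fold change over Empty/Empty was 0.39 ± 0.151 (edgeR adjusted p = 0.311, unadjusted p = 0.0208), in a comparison in which only 1.86% of all tested genes changed and none of the 6 members did. At an unadjusted p under 0.05 edgeR counted 1 member, Cebpb, beside 1263 of all 11578 genes tested, and DESeq2 called 0 members. This value depends on the libraries with letter C, since library C was the highest of Empty/Empty and the lowest of Asxl1-MT2/Empty. Without the letter C libraries of all groups the log2 fold change was 0.73 ± 0.0754 and passed (edgeR adjusted p = 0.000196), an alternative chosen after seeing the data. The interaction, which asks whether the Asxl1-MT2 effect differs with T618I, was 0.56 ± 0.211 for Cebpb and did not pass (edgeR adjusted p = 0.0720). It passed with no low-count filter (0.55, edgeR adjusted p = 0.0164), without library C of Asxl1-MT2/T618I (0.0413), without library B of Asxl1-MT2/Empty (0.0456), without library B of Empty/Empty (0.0488) and without all letter C libraries, where it was 0.32 ± 0.103 (0.0330).

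Cebpb shares 312 exon bases, 20.7% of its exon length, with Tmem189 on the opposite strand, and whether counting used strand was not given. Tmem189 was at 116 ± 11.4 CPM in Asxl1-MT2/T618I, 57.5 ± 2.74 CPM in Asxl1-MT2/Empty, 77.4 ± 0.414 CPM in Empty/T618I and 56.3 ± 7.09 CPM in Empty/Empty (SD, n = 3 each). It thus had the same order of groups as Cebpb, with a log2 fold change of 1.04 ± 0.0960 in Asxl1-MT2/T618I over Empty/Empty (edgeR quasi-likelihood adjusted p = 9.94e-08). Reads of the shared stretch could belong to either gene, and how they were assigned was not tested.

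C/EBPδ, an early-response member induced by inflammatory cytokines, is encoded by Cebpd (ENSMUSG00000071637, GRCm38 chr16:15887286-15891031, plus strand, 1 exon). Its levels were 168, 164 and 146 CPM in Asxl1-MT2/T618I, 111, 109 and 86.4 CPM in Asxl1-MT2/Empty, 106, 107 and 82.1 CPM in Empty/T618I and 91.4, 97.5 and 100.2 CPM in Empty/Empty. All Asxl1-MT2/T618I libraries were higher than the other 9, and the other groups overlapped. The means were 159 ± 11.5 CPM in Asxl1-MT2/T618I, 102 ± 13.5 CPM in Asxl1-MT2/Empty, 98.3 ± 14.1 CPM in Empty/T618I and 96.4 ± 4.49 CPM in Empty/Empty (SD, n = 3 each). Cebpd was 1.62-fold higher in Asxl1-MT2/T618I than in Empty/T618I (log2 fold change 0.70 ± 0.109, edgeR quasi-likelihood adjusted p = 7.31e-05) and 1.56-fold higher than in Asxl1-MT2/Empty (0.64 ± 0.109, edgeR adjusted p = 0.000108). Neither construct alone gave a call: the log2 fold change over Empty/Empty was 0.03 ± 0.110 in Empty/T618I (edgeR adjusted p = 0.864) and 0.08 ± 0.110 in Asxl1-MT2/Empty (edgeR adjusted p = 0.910). The interaction passed at 0.61 ± 0.155 (edgeR adjusted p = 0.0102), the other member to pass being Cebpe where 19.6% of all genes passed in either direction. Spidr, which shares 562 exon bases with Cebpd on the opposite strand, averaged between 50.8 and 55.9 CPM in all 4 groups and passed no test.

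C/EBPε, required in mice for secondary granules and for the segmented nucleus, is encoded by Cebpe (ENSMUSG00000052435, GRCm38 chr14:54710360-54712174, minus strand). In libraries A, B and C it stood at 246, 280.3 and 275 CPM in Asxl1-MT2/T618I, 322, 268 and 224 CPM in Asxl1-MT2/Empty, 136, 139.7 and 118 CPM in Empty/T618I and 250.1, 244 and 224 CPM in Empty/Empty. Empty/T618I was the low group, with no library near the other 9, and the remaining groups overlapped. The means were 267 ± 18.5 CPM in Asxl1-MT2/T618I, 271 ± 49.1 CPM in Asxl1-MT2/Empty, 131 ± 11.3 CPM in Empty/T618I and 239 ± 13.7 CPM in Empty/Empty (SD, n = 3 each). With T618I alone Cebpe fell to 0.549 of the Empty/Empty level (log2 fold change -0.87 ± 0.111, edgeR quasi-likelihood adjusted p = 9.4e-06). It was 2.03-fold higher in Asxl1-MT2/T618I than in Empty/T618I (1.02 ± 0.111, edgeR adjusted p = 1.4e-06), and the interaction of 0.84 ± 0.155 passed as well (edgeR adjusted p = 0.00105). In cells with Asxl1-MT2, T618I gave a log2 fold change of -0.02 ± 0.109 (edgeR adjusted p = 0.880), and with both constructs Cebpe stood at 0.16 ± 0.109 over Empty/Empty (edgeR adjusted p = 0.238). All called values of Cebpe and Cebpd in this and the preceding paragraph remained called, and in the same direction, without any single library and without the letter C libraries.

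Hoxb8, whose counts may include those of the construct that holds these cells as progenitors, was also lowest where Cebpe was. It averaged 571 ± 13.5 CPM in Asxl1-MT2/T618I, 720.0 ± 65.0 CPM in Asxl1-MT2/Empty, 291 ± 45.4 CPM in Empty/T618I and 661 ± 40.0 CPM in Empty/Empty (SD, n = 3 each). The mast cell and basophil list given above was highest in the groups with T618I. Hoxb8 was looked at after its values had been seen, and the part of either in the Cebpe values was not tested.

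C/EBPγ, a short member that pairs with the others and with ATF4, is encoded by Cebpg (ENSMUSG00000056216, GRCm38 chr7:35046422-35056573, minus strand), which lies 62719 bases from Cebpa. Its levels were 45.1, 41.0 and 38.9 CPM in Asxl1-MT2/T618I, 43.6, 51.3 and 58.9 CPM in Asxl1-MT2/Empty, 54.9, 48.7 and 50.5 CPM in Empty/T618I and 55.8, 55.5 and 56.5 CPM in Empty/Empty. The Asxl1-MT2/T618I libraries were lower than every Empty/T618I and Empty/Empty library and overlapped with library A of Asxl1-MT2/Empty. Cebpg was lower with both constructs than in Empty/Empty by the edgeR quasi-likelihood test, at a log2 fold change of -0.42 ± 0.103 (adjusted p = 0.00255). The log2 fold change was -0.30 ± 0.104 against Empty/T618I (edgeR adjusted p = 0.0260) and -0.30 ± 0.104 against Asxl1-MT2/Empty (edgeR adjusted p = 0.0246). As for Cebpa, these calls hung on single libraries. Against Empty/T618I Cebpg was no longer called without library B or C of Asxl1-MT2/T618I (edgeR adjusted p = 0.0581 and 0.0697) or library A of Empty/T618I (0.0742). Against Asxl1-MT2/Empty it was no longer called without library B or C of Asxl1-MT2/T618I (0.0782 and 0.0985) or library B or C of Asxl1-MT2/Empty (0.0553 and 0.137), and without all letter C libraries the log2 fold change there was -0.14 ± 0.103 (0.277).

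CHOP, the stress-induced member that inhibits many C/EBP dimers, is encoded by Ddit3 (ENSMUSG00000025408, GRCm38 chr10:127290774-127296288, plus strand). It was the lowest of the 6 in CPM, at 10.0 to 13.5 CPM in Asxl1-MT2/T618I, 9.78 to 12.7 CPM in Asxl1-MT2/Empty, 8.97 to 10.8 CPM in Empty/T618I and 10.4 to 12.8 CPM in Empty/Empty. All groups overlapped. The largest log2 fold change was 0.30 ± 0.153, in Asxl1-MT2/T618I over Empty/T618I, and it did not pass (edgeR quasi-likelihood adjusted p = 0.129). Summed over a group Ddit3 had 298 to 344 counts, the fewest of the 6. Mars, on the opposite strand, shares 68 exon bases with Ddit3, 3.97% of the exon length of Ddit3. Mars was at 128 to 130 CPM in Asxl1-MT2/T618I and 157 to 179 CPM in Empty/T618I (log2 fold change -0.37 ± 0.0782, edgeR adjusted p = 0.00109). How reads of the shared stretch were assigned was not tested.

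**Figure D2:**
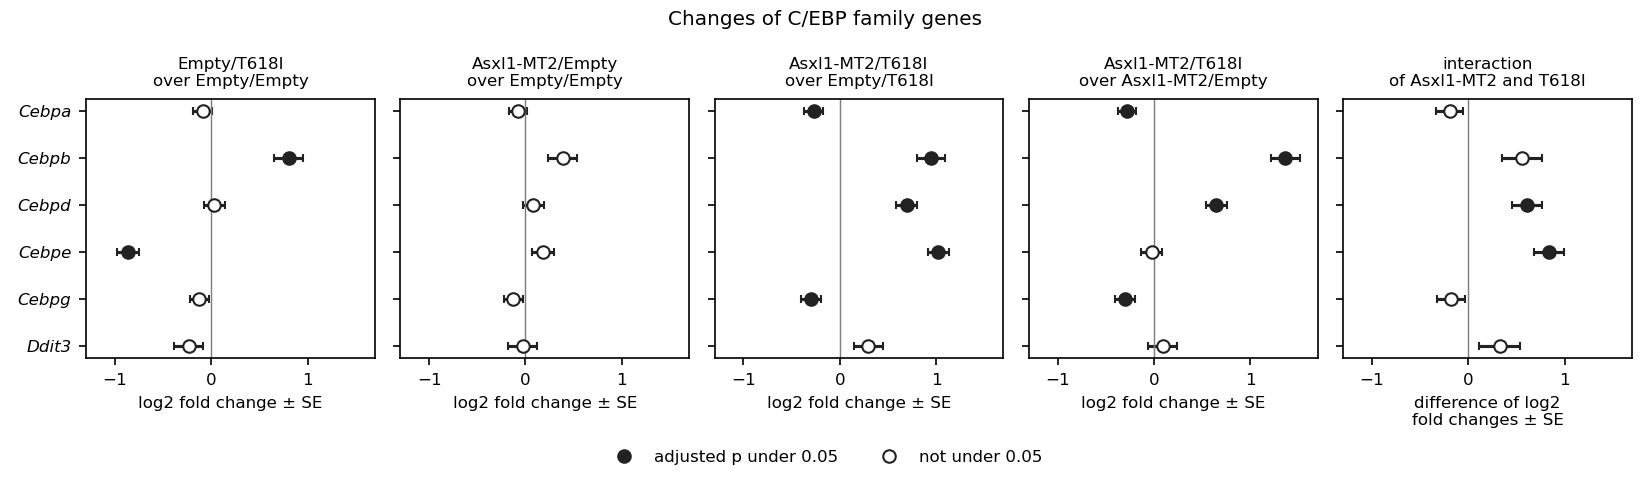
Log2 fold change ± SE of each member in 4 comparisons, and in the last panel the interaction, from the edgeR quasi-likelihood fit. Filled points have an adjusted p under 0.05. In Asxl1-MT2/T618I over Empty/T618I, Cebpb, Cebpd and Cebpe lie to the right of 0 (0.94, 0.70 and 1.02) and Cebpa and Cebpg to its left (-0.27 and -0.30), and in Asxl1-MT2/Empty over Empty/Empty no point is filled.

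Ratios of counts between members were formed within each library. They are not corrected for gene length, and so only their differences between groups are read. For the 15 pairs of members the T618I effect (the mean of its differences with and without Asxl1-MT2) and the Asxl1-MT2 effect (the mean of its differences with and without T618I) were each tested by an exact two-sided permutation test within strata. With 400 relabelings the smallest p it can give is 0.005. Of the 30 tests, 18 passed after Benjamini-Hochberg adjustment over the 30, 9 for each effect. The ratios share their genes, so these passes are not independent and partly count the same gene changes again. Every passing T618I test had Cebpb or Cebpd as the first gene of its ratio. Every passing Asxl1-MT2 test had Cebpb, Cebpd or Cebpe there. Ratios between other genes were not tested, so the share of such ratios that would pass is not known.

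The ratio of Cebpb to Cebpa was 0.854, 0.757 and 0.641 in Asxl1-MT2/T618I, 0.261, 0.257 and 0.198 in Asxl1-MT2/Empty, 0.303, 0.280 and 0.399 in Empty/T618I and 0.140, 0.147 and 0.244 in Empty/Empty. Every library with both constructs lay above the other 9, and every Empty/T618I library above both groups without T618I. The mean ratio was 0.751 ± 0.107 in Asxl1-MT2/T618I, 0.238 ± 0.0352 in Asxl1-MT2/Empty, 0.327 ± 0.0633 in Empty/T618I and 0.177 ± 0.0582 in Empty/Empty (SD, n = 3 each), with Cebpb below Cebpa in counts in every library. The T618I effect on this ratio was 1.29 on the log2 scale (exact permutation p = 0.005, adjusted p = 0.0187), and the Asxl1-MT2 effect was 0.83 (exact permutation p = 0.01, adjusted p = 0.0273). The Asxl1-MT2 effect is an average over a log2 difference of 0.47 without T618I, where the groups overlapped, and 1.20 with it.

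The ratio of Cebpe to Cebpa behaved otherwise. It was 0.592, 0.605 and 0.609 in Asxl1-MT2/T618I, 0.620, 0.456 and 0.439 in Asxl1-MT2/Empty, 0.245, 0.237 and 0.256 in Empty/T618I and 0.401, 0.430 and 0.434 in Empty/Empty. Empty/T618I was the lowest group and did not overlap with any other, and Asxl1-MT2/T618I lay above Empty/Empty but overlapped with library A of Asxl1-MT2/Empty. The Asxl1-MT2 effect of 0.77 passed (exact permutation p = 0.005, adjusted p = 0.0187), whereas the T618I effect of -0.25 did not (exact permutation p = 0.23, adjusted p = 0.287), being an average over a lower ratio without Asxl1-MT2 (log2 difference -0.78) and a higher one with it (0.27).

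The ratio of Cebpb to Cebpe separated the libraries by T618I. It averaged 1.25 ± 0.196 in Asxl1-MT2/T618I, 0.478 ± 0.0749 in Asxl1-MT2/Empty, 1.33 ± 0.206 in Empty/T618I and 0.417 ± 0.125 in Empty/Empty (SD, n = 3 each). All 6 libraries with T618I were above all 6 without, with a T618I effect of 1.54 (exact permutation p = 0.005, adjusted p = 0.0187) and an Asxl1-MT2 effect of 0.07 (exact permutation p = 0.655, adjusted p = 0.688). Cebpd to Cebpa averaged 0.361 ± 0.0404 in Asxl1-MT2/T618I, 0.189 ± 0.0221 in Asxl1-MT2/Empty, 0.184 ± 0.00785 in Empty/T618I and 0.171 ± 0.0239 in Empty/Empty (SD, n = 3 each), and both effects passed at 0.52 for T618I and 0.56 for Asxl1-MT2 (exact permutation p = 0.025, adjusted p = 0.0417 for each). Both averages rest on the group with both constructs. The log2 difference for T618I was 0.11 without Asxl1-MT2 and 0.93 with it. For Asxl1-MT2 it was 0.15 without T618I and 0.97 with it. Each single-construct group overlapped with Empty/Empty. Cebpg to Cebpa was the steadiest ratio, at 0.0945 ± 0.0123 in Asxl1-MT2/T618I, 0.0956 ± 0.0173 in Asxl1-MT2/Empty, 0.0970 ± 0.0133 in Empty/T618I and 0.0990 ± 0.0102 in Empty/Empty (SD, n = 3 each). Its effects of -0.02 for T618I and -0.05 for Asxl1-MT2 did not pass (exact permutation p = 0.81 and 0.665). The 6 other passing tests of the T618I effect were Cebpb to Cebpd, and Cebpb or Cebpd to Cebpg or Ddit3, and Cebpd to Cebpe, each higher on average with T618I. Without Asxl1-MT2, Cebpd to Cebpg (log2 difference 0.14) and Cebpd to Ddit3 (0.25) overlapped between Empty/T618I and Empty/Empty. For Asxl1-MT2 the 6 others were Cebpb, Cebpd and Cebpe, each to Cebpg and to Ddit3, each higher on average with Asxl1-MT2. Without T618I, only Cebpb to Ddit3 was higher in every Asxl1-MT2/Empty library than in every Empty/Empty library, and the others overlapped. With T618I, all 6 were higher in every Asxl1-MT2/T618I library than in every Empty/T618I library. These 6 were picked by the test on the same libraries, so this separation describes them and adds no support. Leaving out single libraries ended several of the ratio calls. The Asxl1-MT2 effects on Cebpb to Cebpa and Cebpe to Cebpa were lost without library A of Empty/Empty (exact permutation adjusted p = 0.0536 for each). Of the effects on Cebpd to Cebpa, that of T618I was lost without any one library of Asxl1-MT2/T618I, library A of Asxl1-MT2/Empty, library A of Empty/T618I, or library A or B of Empty/Empty, and that of Asxl1-MT2 without the same libraries other than library B of Empty/Empty, whereas the T618I effects on Cebpb to Cebpa and Cebpb to Cebpe passed without any one of the 12.

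**Figure D3:**
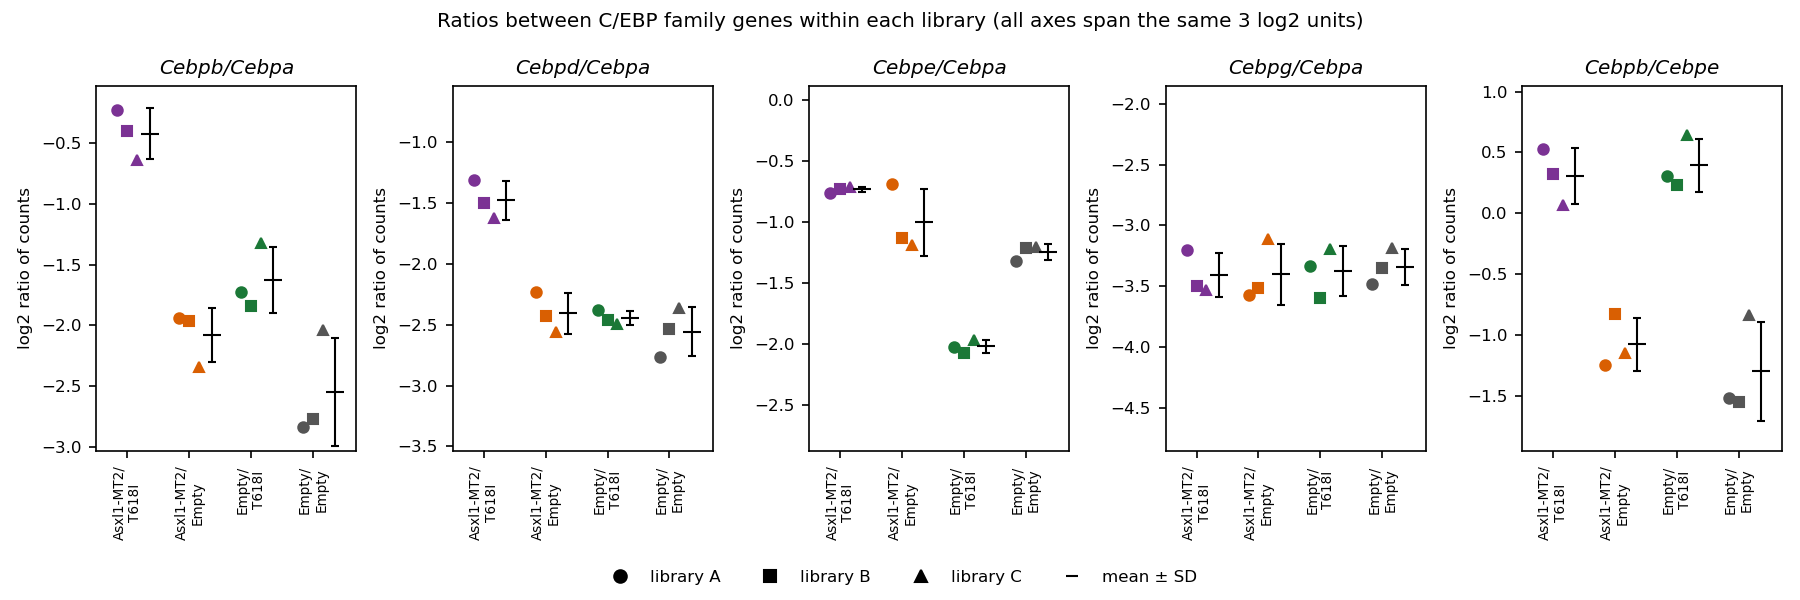
Log2 ratio of the counts of 2 family genes within each library, for 5 of the 15 ratios, with libraries A, B and C as symbols and the mean ± SD of 3 as bars, on axes that all span 3 log2 units. The ratio of Cebpb to Cebpa is highest in Asxl1-MT2/T618I, that of Cebpe to Cebpa is lowest in Empty/T618I, that of Cebpg to Cebpa is at the same height in all groups, and that of Cebpb to Cebpe separates the libraries with T618I from those without.

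To order the levels of different genes, CPM was divided by the annotated exon length in kb (GENCODE M21). On this scale Cebpb led in Asxl1-MT2/T618I at 221 ± 24.5 CPM per kb, followed by Cebpe at 215 ± 14.9, which it overlapped, and Cebpa at 168 ± 9.43 (SD, n = 3). In Asxl1-MT2/Empty the order was Cebpe at 219 ± 39.5 and Cebpa at 204 ± 16.1 CPM per kb, which overlapped, ahead of Cebpb at 85.7 ± 17.0. In Empty/T618I Cebpa led at 203 ± 24.5 CPM per kb, before Cebpb at 115 ± 7.29 and Cebpe at 106 ± 9.09, which overlapped. In Empty/Empty Cebpa at 216 ± 20.5 and Cebpe at 193 ± 11.002 CPM per kb overlapped, ahead of Cebpb at 65.7 ± 15.6. Below these stood Cebpd at 25.7 to 42.5, Cebpg at 7.42 to 9.95 and Ddit3 at 5.70 to 7.01 CPM per kb as group means. Cebpb made up 33.3% of the summed family level in Asxl1-MT2/T618I, 15.4% in Asxl1-MT2/Empty, 24.8% in Empty/T618I and 12.8% in Empty/Empty. The order depends on the length used, because Cebpa, Cebpd and Cebpg have long untranslated parts. Per kb of coding length Cebpa had the highest group mean in every group. In Asxl1-MT2/T618I it stood at 412 ± 23.1, overlapping with Cebpb at 374 ± 41.5, which in turn overlapped with Cebpe at 317 ± 21.98 (SD, n = 3).

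**Figure D4:**
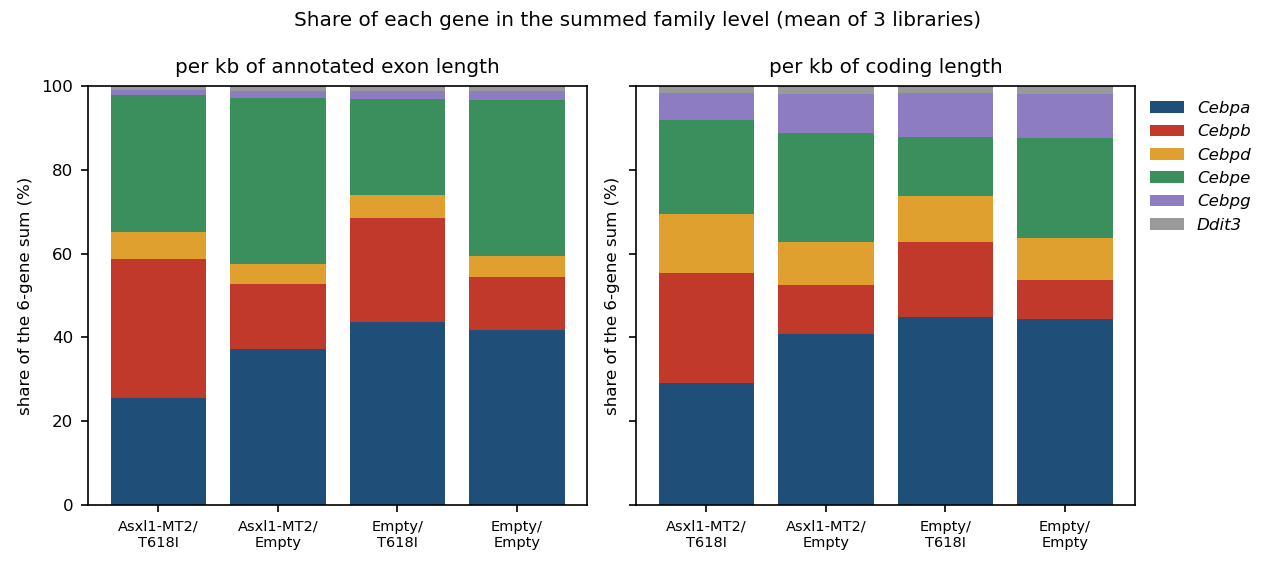
Share of each member in the summed level of the 6 genes, as stacked bars in percent (means of 3 libraries) for the 4 groups, with levels per kb of annotated exon length on the left and per kb of coding length on the right. The Cebpb share is largest in Asxl1-MT2/T618I on both scales (33.3% and 26.3%), while the gene with the largest share in that group is Cebpb on the left and Cebpa on the right.

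Several partners of C/EBP proteins outside the family rose along with Cebpb. Of 10 such leucine zipper genes 8 were tested. In Empty/T618I over Empty/Empty 4 of them rose and 1 fell, where 17.6% of all tested genes rose and 15.9% fell. Junb, an AP-1 subunit, rose by a log2 fold change of 1.83 ± 0.109 and Nfil3, a repressor of the same class, by 1.49 ± 0.128 (edgeR quasi-likelihood adjusted p = 1.08e-09 and 8.41e-08). Jun, another AP-1 subunit, rose by 1.05 ± 0.305 (edgeR adjusted p = 0.0130), a call that was lost without library C of Empty/T618I or library B of Empty/Empty. When Asxl1-MT2 joined T618I, 5 of 8 rose and none fell, against 25.4% and 18.5% of all genes. Jun reached 17.1 ± 5.13 CPM in Asxl1-MT2/T618I, against 4.998 ± 1.28 CPM in Empty/T618I (SD, n = 3 each; log2 fold change 1.78 ± 0.243, edgeR adjusted p = 1.79e-05). Nfil3 reached 84.2 ± 12.7 CPM in Asxl1-MT2/T618I, against 44.5 ± 6.003 CPM in Empty/T618I (SD, n = 3 each; 0.92 ± 0.114, edgeR adjusted p = 6.38e-06). Fos, the usual partner of Jun, was also higher (0.70 ± 0.145, edgeR adjusted p = 0.000838). Asxl1-MT2 alone changed none of the 8 by edgeR or DESeq2 (1 at an unadjusted p under 0.05), where 1.24% of all genes rose and 0.622% fell. Of all 11578 genes, 1263 were at an unadjusted p under 0.05 there.

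Among the 7 tested regulators of C/EBP proteins, 4 rose and 1 fell in Empty/T618I over Empty/Empty, where 17.6% of all tested genes rose and 15.9% fell. Trib1 and Trib2 encode pseudokinases that bring C/EBPα to a ubiquitin ligase for destruction. Trib2 was at 7.94 ± 0.728 CPM in Asxl1-MT2/T618I, 0.627 ± 0.150 CPM in Asxl1-MT2/Empty, 15.8 ± 6.81 CPM in Empty/T618I and 1.08 ± 0.235 CPM in Empty/Empty (SD, n = 3 each). It rose by a log2 fold change of 3.86 ± 0.334 with T618I alone (edgeR quasi-likelihood adjusted p = 9.45e-08) and was lower again in Asxl1-MT2/T618I than in Empty/T618I (-0.99 ± 0.248, edgeR adjusted p = 0.00399). Trib1 was at 21.7 ± 4.17 CPM in Asxl1-MT2/T618I, 4.56 ± 0.191 CPM in Asxl1-MT2/Empty, 10.7 ± 0.824 CPM in Empty/T618I and 6.35 ± 1.58 CPM in Empty/Empty (SD, n = 3 each). It was higher in Asxl1-MT2/T618I than in Empty/T618I (1.01 ± 0.169, edgeR adjusted p = 0.000129), a comparison in which 2 of the 7 rose and 2 fell, near the 25.4% and 18.5% of all genes. Trib1 alone of the 7 passed the interaction (1.49 ± 0.270, edgeR adjusted p = 0.000903), where 14.1% of all genes passed upward and 5.51% downward. Asxl1-MT2 alone changed none of the 7 by edgeR or DESeq2 (1 at an unadjusted p under 0.05). Of all genes, 1.24% rose and 0.622% fell there, and 1263 of 11578 were at an unadjusted p under 0.05.

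Of 11 factors that act with C/EBP proteins in myeloid cells, 5 rose and 4 fell in Asxl1-MT2/T618I over Empty/T618I, where 25.4% of all genes rose and 18.5% fell. Spi1, which encodes PU.1, was at 635 ± 34.7 CPM in Asxl1-MT2/T618I, 407 ± 51.7 CPM in Asxl1-MT2/Empty, 416 ± 26.4 CPM in Empty/T618I and 386 ± 16.5 CPM in Empty/Empty (SD, n = 3 each). It rose where Asxl1-MT2 joined T618I (0.61 ± 0.0909, edgeR quasi-likelihood adjusted p = 4.21e-05), and its interaction of 0.53 ± 0.128 passed (edgeR adjusted p = 0.00748). Irf8, a monocyte and dendritic cell factor, was at 5.36 ± 1.29 CPM in Asxl1-MT2/T618I, against 0.917 ± 0.116 CPM in Empty/T618I (SD, n = 3 each; 2.53 ± 0.422, edgeR adjusted p = 0.000130). Gata2, a progenitor and mast cell factor, was lower in Asxl1-MT2/T618I in that comparison (-0.86 ± 0.128, edgeR adjusted p = 4e-05). There, 6 of 13 mast cell and basophil genes and 6 of 8 megakaryocyte and erythroid genes also fell, and none of either list rose. Of 10 tested monocyte and macrophage genes, Irf8 among them, 8 rose and none fell. The part of these cell types in the Irf8 and Gata2 values was not tested. With T618I alone 7 of the 11 rose and 3 fell, against 17.6% and 15.9% of all genes, and Gata2 rose by 2.62 ± 0.137 and Gata1 by 3.25 ± 0.215 (edgeR adjusted p = 2.75e-10 and 3.67e-09). In that comparison 13 of the 13 mast cell and basophil genes and 7 of 8 megakaryocyte and erythroid genes, Gata1 among them, also rose, and their part in these values was not tested. Asxl1-MT2 alone lowered Gata1 (-1.63 ± 0.329) and Gata2 (-0.70 ± 0.141, edgeR adjusted p = 0.0139 for each) and no other of the 11, and both calls were lost without library A or B of Asxl1-MT2/Empty or library A of Empty/Empty. In that comparison 4 of 13 mast cell and basophil genes and 3 of 5 tested eosinophil genes fell too, and none of either list rose. Of all genes, 0.622% fell and 1.24% rose. DESeq2 called 4 of the mast cell and basophil list and 2 of the eosinophil list. The part of these cell types in the GATA values was not tested.

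Of the target lists, granule genes that need C/EBPε in mice had the largest median change when Asxl1-MT2 joined T618I. In Asxl1-MT2/T618I over Empty/T618I 11 of 11 rose, with a median log2 fold change of 2.92 beside 0.01 for all genes tested, and 25.4% of all genes rose. Chil3, a chitinase-like protein of granulocytes and macrophages, averaged 368 ± 29.1 CPM in Asxl1-MT2/T618I, 16.1 ± 3.66 CPM in Asxl1-MT2/Empty, 48.6 ± 12.6 CPM in Empty/T618I and 28.1 ± 8.495 CPM in Empty/Empty (SD, n = 3 each). Ltf, the lactoferrin gene, averaged 1002 ± 50.3 CPM in Asxl1-MT2/T618I, 35.7 ± 10.2 CPM in Asxl1-MT2/Empty, 97.7 ± 26.4 CPM in Empty/T618I and 91.8 ± 44.05 CPM in Empty/Empty (SD, n = 3 each). In both genes the group with both constructs was far above the rest. All 11 passed the interaction upward, where 14.1% of all genes did, with values of 3.72 ± 0.289 for Chil3 and 4.72 ± 0.410 for Ltf (edgeR quasi-likelihood adjusted p = 2.27e-06 and 3.54e-06). Monocyte and macrophage markers rose with them (8 of 10 tested), and the 12 in the table summed to 1044 to 1430 CPM in Asxl1-MT2/T618I, 758 to 850.2 CPM in Asxl1-MT2/Empty, 542 to 594 CPM in Empty/T618I and 599 to 686 CPM in Empty/Empty. Their part in the granule values was not tested. Most granule genes also rose where Cebpe did not pass. In Asxl1-MT2/T618I over Asxl1-MT2/Empty 10 of 11 rose and 1 fell, with a median of 3.32 beside -0.02 for all genes. There 26.9% of all genes rose and 22.8% fell. Against Empty/Empty 10 of 11 rose and 1 fell, with a median of 3.45 beside -0.01, where 27.5% and 23.1% of all genes did. The part of Cebpe in the granule values was not tested.

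The granule genes were mixed with T618I alone. In Empty/T618I over Empty/Empty, where Cebpe fell, 5 of the 11 rose and 2 fell, where 17.6% of all genes rose and 15.9% fell. Mmp8 and Mmp9, the collagenase and gelatinase of granules, rose by log2 fold changes of 5.02 ± 0.247 and 3.96 ± 0.288, and Cd177, a neutrophil surface protein, by 2.30 ± 0.218 (edgeR quasi-likelihood adjusted p = 1.46e-10, 1.19e-08 and 2.88e-07). Fcnb, which encodes ficolin B, fell by 4.13 on the log2 scale (edgeR adjusted p = 6.05e-09). Mmp8 was at 1919.5 ± 607 CPM in Asxl1-MT2/T618I, 2.18 ± 0.652 CPM in Asxl1-MT2/Empty, 201 ± 25.1 CPM in Empty/T618I and 6.18 ± 1.998 CPM in Empty/Empty (SD, n = 3 each). Fcnb was at 66.6 ± 19.9 CPM in Asxl1-MT2/T618I, 258 ± 53.7 CPM in Asxl1-MT2/Empty, 6.68 ± 4.21 CPM in Empty/T618I and 118 ± 0.803 CPM in Empty/Empty (SD, n = 3 each), an order in which Empty/T618I is lowest, as for Cebpe. Asxl1-MT2 alone raised Fcnb (1.13 ± 0.216, edgeR adjusted p = 0.0104) and lowered Ltf (-1.36 ± 0.294, edgeR adjusted p = 0.0233). DESeq2 did not call Fcnb there, and it called 5 of the 11 in all. At an unadjusted p under 0.05 edgeR counted 8 of the 11, beside 1263 of all 11578 genes tested. By adjusted p, 1.24% of all genes rose and 0.622% fell there. The Fcnb call was lost without library A of Asxl1-MT2/Empty or library B of Empty/Empty, and the Ltf call without library B or C of Asxl1-MT2/Empty, library A or C of Empty/Empty, or all letter C libraries.

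Genes that depend on C/EBPα in early granulocytes moved in both directions. With T618I alone 2 of 7 tested rose and 4 fell, against 17.6% and 15.9% of all genes. Csf3r, whose counts may include those of the T618I construct, was 1 of those that rose, and without it the counts are 1 and 4 of 6. Mpo, the peroxidase of primary granules, fell by 1.31 on the log2 scale, Gfi1, a repressor needed by neutrophils, fell by 1.06 and Prtn3, proteinase 3, fell by 0.67 (edgeR quasi-likelihood adjusted p = 2.12e-07, 7.4e-07 and 0.000124). Id1, an inhibitor of helix-loop-helix factors, rose by 1.08 ± 0.125 (edgeR adjusted p = 2.79e-06). In the same comparison 6 of 7 neutrophil progenitor markers fell, a list that shares Mpo, Elane and Prtn3 with this one, and the part of that change in these values was not tested. When Asxl1-MT2 joined T618I, 2 of 7 rose and none fell, where 25.4% of all genes rose and 18.5% fell. The 2 were Il6ra and Csf3r, the receptors for interleukin 6 and for granulocyte colony-stimulating factor. Il6ra was at 73.4 ± 20.3 CPM in Asxl1-MT2/T618I, 9.49 ± 2.02 CPM in Asxl1-MT2/Empty, 15.4 ± 1.72 CPM in Empty/T618I and 12.03 ± 1.10 CPM in Empty/Empty (SD, n = 3 each), with a log2 fold change of 2.25 ± 0.175 (edgeR adjusted p = 3.41e-08). Csf3r was at 967 to 1688 CPM in Asxl1-MT2/T618I, 253 to 320 CPM in Asxl1-MT2/Empty, 386 to 456 CPM in Empty/T618I and 232 to 337 CPM in Empty/Empty. Whether reads of the CSF3R construct count to the mouse gene was not given, and Csf3r counts are therefore not read as the cell's own. Without Csf3r, 1 of 6 rose. Asxl1-MT2 alone raised Elane, neutrophil elastase (0.55 ± 0.130, edgeR adjusted p = 0.0382), and no other of the 7 passed. Of all genes, 1.24% rose and 0.622% fell there. The Elane call was lost without any of the 6 libraries of this comparison, one at a time, and without library B of Asxl1-MT2/T618I or library A of Empty/T618I.

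Inflammatory genes known as targets of C/EBPβ and C/EBPδ rose with T618I, and most were higher still with both constructs. Of 10 tested, 8 rose and none fell in Empty/T618I over Empty/Empty, where 17.6% of all genes rose and 15.9% fell. In Asxl1-MT2/T618I over Empty/T618I 7 rose and 1 fell, where 25.4% and 18.5% of all genes did, and 10 of 10 rose in Asxl1-MT2/T618I over Asxl1-MT2/Empty, where 26.9% of all genes rose. The median log2 fold changes were 2.94, 1.59 and 4.02 in these comparisons, beside 0.00, 0.01 and -0.02 for all genes tested. In the last of them Cxcl2, a chemokine that draws neutrophils and was singled out after its counts were seen, stood at its lower bound of at least 90.2-fold higher, because it had 0 counts in Asxl1-MT2/Empty (floor of 3 counts over the group). Saa3, an acute phase protein, was at 294 ± 75.2 CPM in Asxl1-MT2/T618I, 0.166 ± 0.152 CPM in Asxl1-MT2/Empty, 39.4 ± 4.10 CPM in Empty/T618I and 1.54 ± 1.80 CPM in Empty/Empty (SD, n = 3 each). Lcn2, the lipocalin of neutrophil granules, was at 3460.1 ± 512 CPM in Asxl1-MT2/T618I, 347 ± 60.96 CPM in Asxl1-MT2/Empty, 841 ± 81.1 CPM in Empty/T618I and 305 ± 49.97 CPM in Empty/Empty (SD, n = 3 each). Saa3 and Lcn2 were both higher in Asxl1-MT2/T618I than in Empty/T618I (2.90 ± 0.222 and 2.04 ± 0.140, edgeR quasi-likelihood adjusted p = 2.93e-08 and 1.04e-08). Il6, which encodes interleukin 6, was the 1 that fell there (-1.18 ± 0.302, edgeR adjusted p = 0.00463), after a rise with T618I alone (3.93 ± 0.404, edgeR adjusted p = 7.34e-07). Asxl1-MT2 alone changed none of the 10 by edgeR (4 at an unadjusted p under 0.05, and 2 by DESeq2). Of all genes, 1.24% rose and 0.622% fell there, and 1263 of 11578 were at an unadjusted p under 0.05. The median log2 fold change was -0.43, over the 9 genes above the floor of 3 counts in at least 1 group, beside 0 for all genes tested. Lcn2 and Hp are in the granule list as well, so these lists share members. The 13 mast cell and basophil genes also rose with T618I alone, and 8 of 10 tested monocyte and macrophage genes rose when Asxl1-MT2 joined it. Their part in the inflammatory values was not tested.

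The list of stress genes downstream of ATF4 and CHOP had 23 tested genes. Ddit3 itself passed no test, and its part in their values was not tested. With T618I alone 13 of 23 rose and 3 fell, against 17.6% and 15.9% of all genes. Slc7a5 and Slc7a11, amino acid transporters, rose by log2 fold changes of 1.67 ± 0.0898 and 1.75 ± 0.153, and Herpud1, a gene of endoplasmic reticulum stress, fell by 0.85 (edgeR quasi-likelihood adjusted p = 3.54e-10, 1.05e-07 and 5.4e-08). When Asxl1-MT2 joined T618I, 6 rose and 6 fell, against 25.4% and 18.5% of all genes. Sesn2, a stress sensor, rose by 0.79 ± 0.132, and Phgdh and Psat1, enzymes of serine synthesis, fell by 0.52 and 0.49 (edgeR adjusted p = 0.000126, 0.000159 and 0.000202). Asxl1-MT2 alone changed none of the 23 by edgeR or DESeq2 (4 at an unadjusted p under 0.05). Of all genes, 1.24% rose and 0.622% fell there, and 1263 of 11578 were at an unadjusted p under 0.05.

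**Figure D5:**
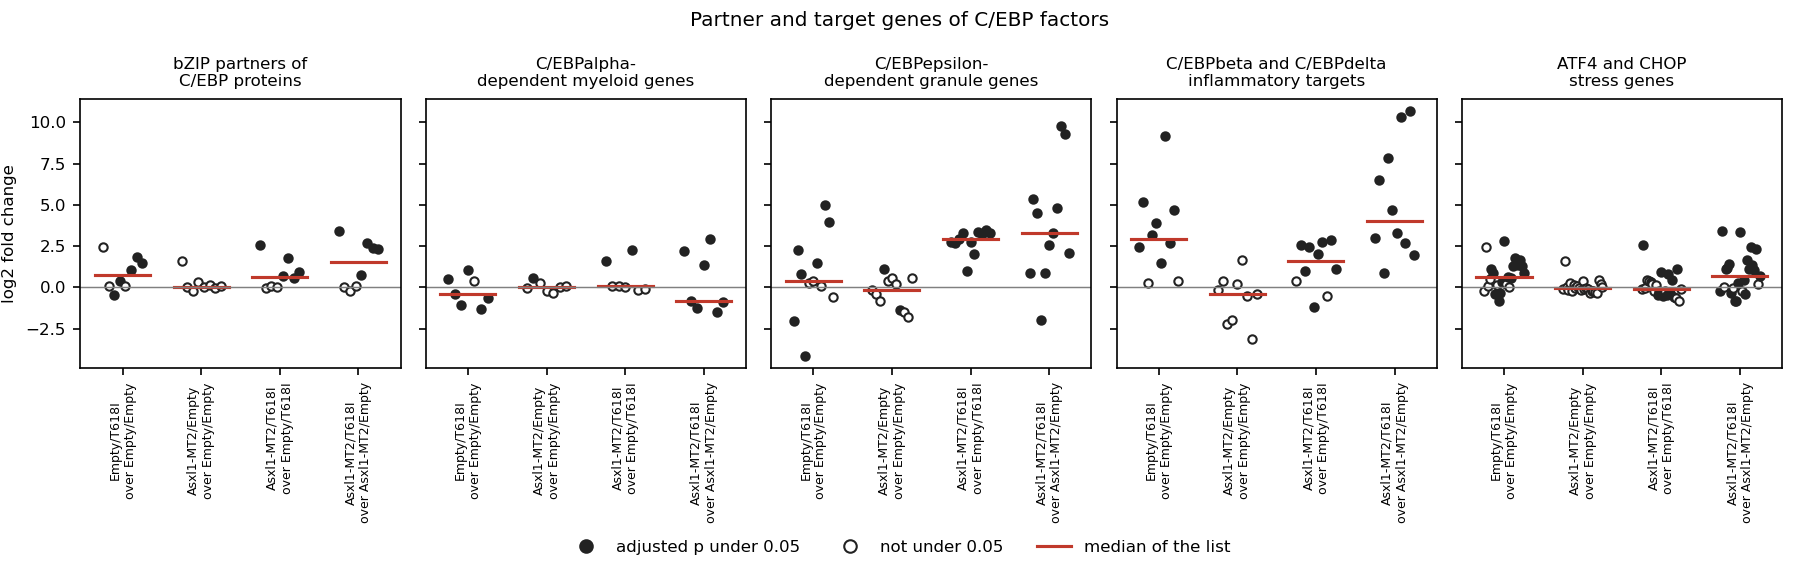
Log2 fold change of each tested gene (points, filled at an edgeR adjusted p under 0.05) and list median (red line) for 5 lists of C/EBP partners and targets, in 4 comparisons per panel. Cxcl2 is drawn at its lower bound where Asxl1-MT2/Empty had 0 counts, and is left out where neither group passed 3 counts. In the C/EBPε panel all 11 points of Asxl1-MT2/T618I over Empty/T618I are filled and above 0, and in Asxl1-MT2/Empty over Empty/Empty most points of each panel are open.

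The genes whose profiles over the 12 libraries were closest to each member were found by the root mean square difference of log2 CPM, each gene centred on its own mean. Closest to Cebpb was Tmem140, at a difference of 0.168, followed by Birc3 at 0.191 and Mvp at 0.197. Birc3, an inhibitor of apoptosis, was at 81.0 CPM in Asxl1-MT2/T618I, 27.6 CPM in Asxl1-MT2/Empty, 42.7 CPM in Empty/T618I and 25.7 CPM in Empty/Empty as group means. Closest to Cebpd was Spi1, at 0.0848, then Skap2 at 0.0891 and Slc25a38 at 0.0988. For Cebpe the nearest was Pgd, which encodes an enzyme of the pentose phosphate pathway, at 0.108, then Aldh2 at 0.116 and Tctn1 at 0.120. The members with small ranges had near neighbours that say less: Tmem55b, Dpy30 and Atp5g1 for Cebpa (0.0502 to 0.0640), Med23, Ints6 and Zfp644 for Cebpg (0.0796 to 0.0864) and H2afj, Mus81 and Aldh16a1 for Ddit3 (0.0789 to 0.0909). These are likenesses over the same 12 libraries and 4 groups, with no test.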

How the data were processed

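What the authors deposited was 1 count table, with raw reads by gene symbol in 12 library columns. The submitters' processing notes name Trimmomatic, STAR, DESeq2 and the genome build mm10. How reads were counted, and whether by strand, was not given, so overlapping genes and close paralogs (Itgb2l, Chil3, the Mcpt genes) are uncertain. Groups came from the titles. Columns carry letters from A to C that nothing links to the title numbers.

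From the deposited counts, genes were filtered with filterByExpr (11578 kept, with 99.94% of the counts), scaled with TMM factors (0.919 to 1.03) and tested by quasi-likelihood (edgeR 4.0.16, run in R 4.3.3), with 4 group means over all 12 libraries and 8 residual degrees of freedom. A gene was called at a Benjamini-Hochberg adjusted p under 0.05 over all genes tested. The low-count filter, RLE scaling, DESeq2 1.42.0, fits on only the groups compared, a block for the letter, and leaving out each library in turn were tried as alternatives. Ratios used log2 of counts plus 0.5 and exact permutation. The scripts were tested on simulated data. No pair of libraries within a group was close enough to be copies, as each differed beyond counting error (chi-square per gene 3.34 to 14.1).

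The members, the gene lists and the tests were chosen with earlier results of these data known. The text names all members, Asxl1, Csf3r and Socs3, up to 4 called genes with the smallest adjusted p per list and comparison, and the 3 genes nearest to each member with a mean no lower than 10 CPM. Any other gene is named as chosen after its values were seen, apart from the genes that overlap a member (Tmem189, Spidr and Mars) and the few that define a marker list. The letters did not meet the rule for pairing samples: of 18 same-letter pairs over the 4 groups, 11 had a correlation of deviations over 0.1 (range -0.10 to 0.41), against 8 of 36 different-letter pairs. All 3 same-letter pairs passed 0.1 between Asxl1-MT2/T618I and Asxl1-MT2/Empty and between Asxl1-MT2/Empty and Empty/T618I. The block by letter changed the call of no member.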

Additional observations from a re-analysis of the deposited data

Results flagged for a closer look

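Genes were set apart here because the effect of Asxl1-MT2 in cells with T618I differed from its effect in cells without it, by the interaction term of the edgeR fit. Among the members these were Cebpd, at a log2 difference of 0.61, and Cebpe, at 0.84. In the lists the number of genes with such a difference was 4 of 8 leucine zipper partners and 1 of 7 regulators of C/EBP proteins. It was 4 of 11 myeloid factors, and 2 of 7 C/EBPα-dependent genes or 1 of 6 without Csf3r. Csf3r counts may include those of the construct. The number was 11 of 11 C/EBPε-dependent granule genes, 5 of 10 inflammatory targets and 6 of 23 ATF4 and CHOP genes. Among cell type markers it was 3 of 5 tested eosinophil genes, 8 of 10 monocyte and macrophage genes, 1 of 8 megakaryocyte and erythroid genes, 0 of 13 mast cell and basophil genes and 0 of 7 neutrophil progenitor genes (2 of each at an unadjusted p under 0.05, and 0 by DESeq2). Over all genes tested the share was 19.6%, and 3894 of 11578 were at an unadjusted p under 0.05.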

How the results depend on the processing

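Under RLE scaling, DESeq2 and the replicate block by letter, all 36 member results kept their direction and their side of the threshold. With no low-count filter 35 did, and the interaction of Cebpb passed (0.55, edgeR adjusted p = 0.0164). The largest shift in the median of all genes under any setting was 0.0295 on the log2 scale. The number of genes called in Asxl1-MT2/Empty over Empty/Empty was the least settled: 215 in the fit reported, 359 with no low-count filter, 386 without the letter C libraries (chosen after seeing the data), and between 60 and 276 when single libraries were left out (60 and 106 without library A or B of Asxl1-MT2/Empty, and 101, 104 and 136 without library A, B or C of Empty/Empty). Of the members, 1 was called there without the letter C libraries. Leaving out single libraries gave 2 to 4 members called in Asxl1-MT2/T618I over Asxl1-MT2/Empty (2 without library C of Asxl1-MT2/T618I or library B of Asxl1-MT2/Empty) and 3 to 5 in Asxl1-MT2/T618I over Empty/T618I (3 without library A of Empty/T618I). The ratio tests gave 9 to 19 passes when single libraries were left out (9 without library A of Empty/Empty and 10 without library A of Asxl1-MT2/Empty), 19 with a pseudocount of 5, 0 with the replicate block and 0 without the letter C libraries. Within letters only 64 relabelings exist and p cannot go below 0.0312, and without the letter C libraries there are fewer still, so these counts of 0 say nothing about stability. The letters do not pair the samples by the rule used. Among the other named genes, no result reversed in any setting. The cause of these shifts was not tested. The effect of depth on these results was not compared. Shares of the family level moved by more than their spread with coding length in 21 of 24 cases.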
